A study of Mus musculus with 15 samples.

Results

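The effect of antibiotics on the cecal transcriptome was compared between mice whose cecum had low RNA of the clock output gene Dbp and mice in which it was high. All 15 mice of the series entered the comparison, in 4 cells: 3 low-Dbp AIMD mice (replicates 1 to 3), 4 low-Dbp Vehicle mice (replicates 1 to 4), 4 high-Dbp AIMD mice (replicates 4 to 7) and 4 high-Dbp Vehicle mice (replicates 5 to 8). A mouse was low with a Dbp level under 3 FPKM (fragments mapped to the gene, scaled by its length and by the depth of the library) and high above it. The values nearest to that limit were 1.32 FPKM in AIMD replicate 3 and 5.18 FPKM in Vehicle replicate 7. The quantity tested was the interaction, that is, the AIMD minus Vehicle difference in low-Dbp mice minus the same difference in high-Dbp mice, for each of 11971 genes.

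All mice were wild-type C57BL/6 males whose age is labelled as 20 weeks. AIMD mice received ampicillin, vancomycin, metronidazole and neomycin together with the antifungal amphotericin B by oral gavage for 30 days, and Vehicle mice received water the same way. Whole ceca were emptied and frozen, so the RNA holds epithelium, immune cells, muscle and nerve together, and mRNA was sequenced. In such bulk tissue, fewer cells of a type and less RNA per cell cannot be told apart. The time at which each mouse was killed is not in the labels. The 2 classes are thus a reading of Dbp and not a labelled clock time. They also follow the order of the replicate numbers within each group, so that clock phase and anything else that changed along that order, such as the day of collection, cannot be told apart. Since Dbp chose the classes, no difference between the classes was tested for any gene, and Dbp itself received no test.

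The circadian clock is a loop of transcription factors that most cells carry. CLOCK and BMAL1, the product of Arntl, bind E-boxes and switch on the Per and Cry genes, the Nr1d genes and Dbp, and the PER and CRY proteins then shut CLOCK and BMAL1 down. NR1D proteins repress Arntl through ROR elements, so Arntl RNA peaks when Dbp RNA is low. DBP, TEF and HLF activate genes through D-boxes, and NFIL3 represses them there. In the gut the clock is known to follow feeding and to respond to the microbiota.

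Promoter sequences of 4 clock genes are shown because their motifs link the genes of the loop to one another. Windows from 250 bases before to 50 bases after each start site came from RefSeq on GRCm38.p6 and were searched on both strands for 4 clock motifs. Of 23 clock genes, 19 had a window. The E-box CACGTG stood in 6 of the 19 (Per1, Cry1, Bhlhe41, Ciart, Tef and Tspan4) and in 8.09% of 27025 genes, and its variant CACGTT stood in 3 (Cry1, Cry2 and Nr1d1) and in 5.44% of genes. The ROR element core TAGGTCA stood in 2 (Arntl and Nfil3) and in 2.97% of genes. The D-box TTATGTAA stood in 1 (Per3) and in 1.11% of genes. Capitals mark the matches, read 5′ to 3′ on the strand of the gene, with the bases around them; a match is a description of letters, not evidence of binding. The Arntl stretch is chr7:113207511-113207560 on the plus strand and holds TAGGTCA. The Per3 stretch is chr4:151044786-151044900 on the minus strand and holds TTATGTAA 2 times. The Cry1 stretch is chr10:85185079-85185163 on the minus strand, with CACGTT as its reverse complement and then CACGTG. The Ciart stretch is chr3:95882237-95882374 on the minus strand, with CACGTG 3 times.
Arntl: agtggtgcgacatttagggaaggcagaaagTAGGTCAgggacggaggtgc
Per3: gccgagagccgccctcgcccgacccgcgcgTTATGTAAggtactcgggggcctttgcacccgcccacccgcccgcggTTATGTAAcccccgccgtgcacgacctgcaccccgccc
Cry1: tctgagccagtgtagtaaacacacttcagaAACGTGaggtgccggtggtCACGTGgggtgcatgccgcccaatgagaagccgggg
Ciart: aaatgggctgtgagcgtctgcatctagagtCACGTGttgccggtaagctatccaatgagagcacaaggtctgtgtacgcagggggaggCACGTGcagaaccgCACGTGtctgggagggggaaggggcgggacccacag

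Reads on genes, recovered from the FPKM, ranged from 8679679 to 18108586 in AIMD mice and from 4372423 to 14405949 in Vehicle mice, and the high-Dbp Vehicle mice were the least deep cell, at 4372423 to 9730295. AIMD and Vehicle mice separated on the first principal component of 500 genes, with scores of 11.8 to 24.4 and of -21.2 to -12.1. Vehicle replicate 8 stood apart on the second component with a score of 24.4 and had an array weight of 0.187. Values without it are given for some of the results. Of the markers of the labelled tissue, all 10 for enterocytes passed the filter on low values (at least 0.5 FPKM in at least 7 mice), and 1 of 10 pancreas markers did. Fabp6, an ileal bile acid binding protein chosen after its values were seen, stood high in 3 of the 4 high-Dbp Vehicle mice. It had 1040, 2.69, 1060 and 1720 FPKM in Vehicle replicates 5 to 8 and 1.42 to 225 FPKM in the other 11 mice. The part of this difference between mice in the results was not tested.

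Dbp, whose product activates D-box genes, lies at chr7:45705088-45710203 on the plus strand of GRCm38 and overlaps Sphk2 on the other strand. It had 0.797, 0.849 and 1.32 FPKM in the low-Dbp AIMD mice and 0.601, 0.527, 0.596 and 0.58 FPKM in the low-Dbp Vehicle mice. In the high-Dbp mice it had 9.22, 7.39, 9.61 and 8.9 FPKM after AIMD and 7.17, 9.5, 5.18 and 13.7 FPKM in Vehicle. All 3 low-Dbp AIMD mice stood above all 4 low-Dbp Vehicle mice, while the high-Dbp groups overlapped, with Vehicle replicates 7 and 8 at the ends of the range. The class means were 0.99 and 0.576 FPKM in low-Dbp AIMD and Vehicle mice and 8.78 and 8.9 FPKM in high-Dbp ones.

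Arntl (chr7:113207465-113314126, plus strand), which encodes the activator BMAL1, ran the other way to Dbp. Its level was 20.7, 15.4 and 16.2 FPKM in low-Dbp AIMD mice and 14.9, 12.5, 16.1 and 14.7 FPKM in low-Dbp Vehicle mice. It was 6.62, 9.9, 7.42 and 5.77 FPKM in high-Dbp AIMD mice and 4, 4.22, 4.57 and 4.09 FPKM in high-Dbp Vehicle mice. Every low-Dbp mouse was above every high-Dbp mouse, the low-Dbp groups overlapped, and all high-Dbp AIMD mice lay above all high-Dbp Vehicle mice. Among high-Dbp mice Arntl rose with AIMD by 0.72 on the log2 scale (limma, adjusted p = 0.00386), and the low-Dbp estimate was 0.25 (adjusted p = 0.359). The interaction was -0.48, with a 95% interval from -0.97 to 0.02. All log2 values here are of FPKM + 0.5, a scale that understates the change of low genes, and p-values measure the spread between the mice.

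Per2 (chr1:91415982-91459324, minus strand), a repressor arm of the loop, gave an interaction of the opposite sign. Its FPKM were 1.56, 1.28 and 1.46 in low-Dbp AIMD mice and 0.906, 0.67, 1.34 and 1.2 in low-Dbp Vehicle mice. They were 4.98, 3.89, 4.59 and 4.89 in high-Dbp AIMD mice and 5.26, 5.09, 7.14 and 8.04 in high-Dbp Vehicle mice. Low-Dbp groups overlapped, and in the high-Dbp class every AIMD mouse lay below every Vehicle mouse. The AIMD effect was 0.36 in low-Dbp mice (limma, adjusted p = 0.222) and -0.42 in high-Dbp mice (adjusted p = 0.0804), neither past the threshold of 0.05. Their difference was 0.78 (95% interval 0.23 to 1.32), with an unadjusted p = 0.00813 that did not pass after adjustment over all genes, and it was 0.66 without Vehicle replicate 8.

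Cry1 (chr10:85131700-85185064, minus strand), the late repressor of the loop, rose with AIMD in both classes. Its FPKM were 28.8, 20.5 and 19.9 in low-Dbp AIMD mice against 7.58, 8.69, 9.94 and 9.54 in low-Dbp Vehicle mice. In high-Dbp mice they were 14.9, 19.1, 15.8 and 14.6 after AIMD against 11.3, 7.53, 8.92 and 10.1 in Vehicle. AIMD mice lay above Vehicle mice without overlap in each class. The rise was 1.31 in low-Dbp mice (limma, adjusted p = 0.000239) and 0.74 in high-Dbp mice (adjusted p = 0.00369). The interaction was 0.56 (95% interval 0.06 to 1.07; unadjusted p = 0.0306), not past the threshold after adjustment.

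**Figure D1:**
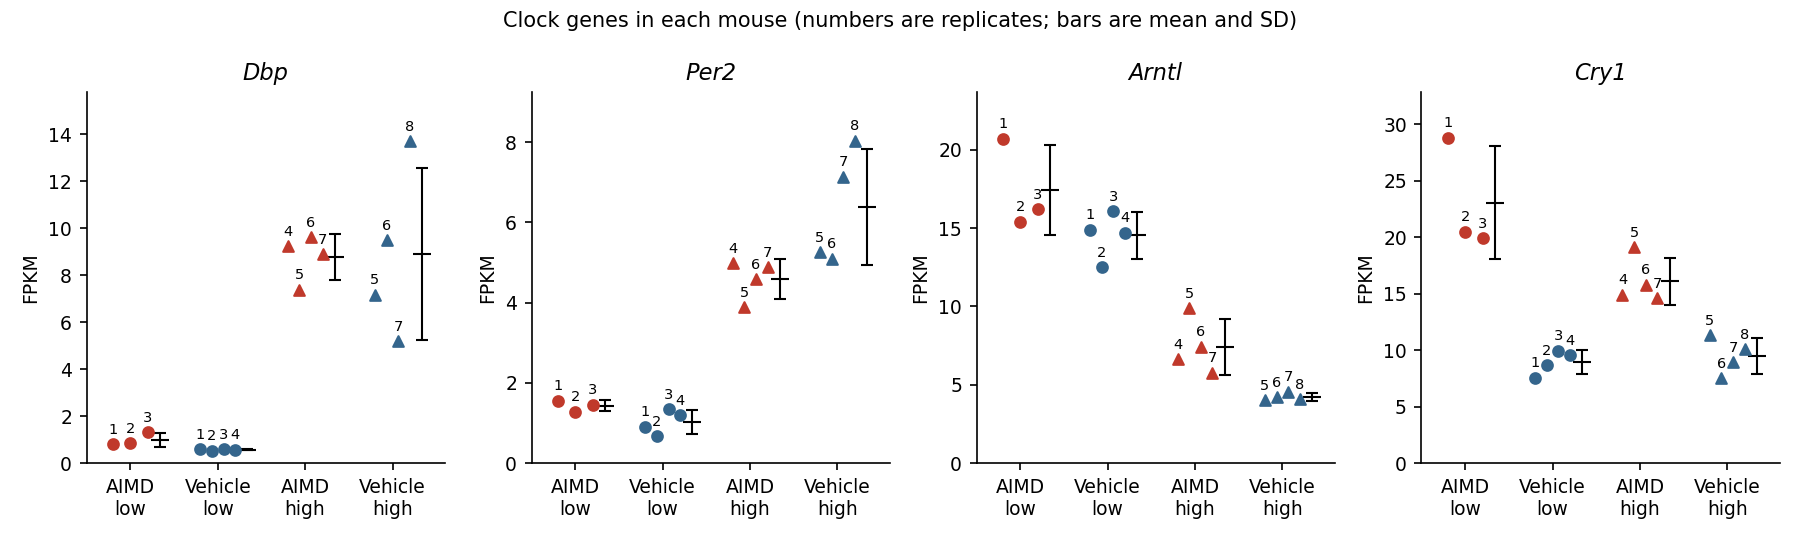
FPKM of Dbp, Per2, Arntl and Cry1 in each of the 15 mice, by treatment and Dbp class; each point is a mouse, labelled with its replicate number, and the bars are the mean and SD. Dbp and Per2 are high where Arntl is low, and Cry1 is above Vehicle in all AIMD mice of both classes (19.9 FPKM or more in low-Dbp mice, 14.6 or more in high-Dbp mice).

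Several other genes of the loop fell with AIMD in high-Dbp mice, while their low-Dbp estimates did not pass and the difference between the classes passed for none of them. Per3, another period gene, had 0.208 to 0.4 FPKM in low-Dbp AIMD mice, 0.192 to 0.534 in low-Dbp Vehicle mice, 1.69 to 2.19 in high-Dbp AIMD mice and 2.71 to 3.64 in high-Dbp Vehicle mice. The high-Dbp groups did not overlap, and Per3 fell there by 0.53 (limma, adjusted p = 0.0194) with a low-Dbp estimate of -0.1. Nr1d2, which represses Arntl, had 15.7 to 27.2 FPKM in high-Dbp AIMD mice and 26.5 to 36.4 in high-Dbp Vehicle mice and fell by 0.55 (adjusted p = 0.0469), with AIMD replicate 7 inside the Vehicle range. Bhlhe40, an E-box repressor, fell by 0.65 (adjusted p = 0.0419), and Npas2, a partner of BMAL1 in place of CLOCK, fell by 0.57 (adjusted p = 0.0215), both in high-Dbp mice. Ciart, a CLOCK and BMAL1 inhibitor, had an AIMD effect of 0.43 in low-Dbp mice and -0.16 in high-Dbp mice, and neither passed. Nr1d1, whose gene overlaps Thra on the other strand, had effects of 0.8 and 0.11, and neither passed.

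Of 15 core clock genes, 13 passed the filter on low values. For AIMD in low-Dbp mice, 1 of the 13 was higher at an adjusted p under 0.05 (Cry1), against 7.62% of all genes tested, and 0 were lower, against 5.69%. In high-Dbp mice 2 were higher (Cry1 and Arntl), against 16.3% of all genes, and 4 were lower (Per3, Nr1d2, Bhlhe40 and Npas2), against 13.6%. The interaction estimate was above 0 for 11 of the 13, against 47.9% of all genes, and below 0 for 2, against 52.1%. Of the 13, 3 (Per2, Cry1 and Ciart) had an unadjusted interaction p under 0.05, each above 0, where 2.2% of all genes did so above 0 and 2.26% below. The median interaction was 0.38 against -0.02 over all genes, and it ran from 0.3 to 0.49 when mice were left out 1 at a time. The median AIMD effect over the 13 was 0.25 in low-Dbp mice and -0.06 in high-Dbp mice, against 0 and 0.02 over all genes.

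Among 8 clock output genes, 6 passed the filter. Tef, a D-box activator like Dbp, rose with AIMD in both classes, by 0.71 in low-Dbp mice (limma, adjusted p = 0.0352) and by 0.55 in high-Dbp mice (adjusted p = 0.0431). Usp2, a deubiquitinase under clock control, had 10.7 to 17.1 FPKM in high-Dbp AIMD mice and 22.6 to 28.3 in high-Dbp Vehicle mice. These groups did not overlap, and Usp2 fell by 0.97 (adjusted p = 0.00154), while the low-Dbp estimate was -0.43 (adjusted p = 0.164). Tsc22d3, a glucocorticoid-induced gene, fell by 0.86 in high-Dbp mice (adjusted p = 0.00584) with a low-Dbp estimate of -0.59. Apart from Dbp, which received no test, no output gene had an unadjusted interaction p under 0.05. Of the 6 estimates 5 were above 0, against 47.9% of all genes, and the median interaction was 0.33. Dbp, which chose the classes, is among these 5 with an estimate of 0.39, so neither the count nor the median is independent of that choice. That median was 0.19 without Vehicle replicate 8, with 2 of the 6 below 0. Wee1, a cell-cycle kinase under clock control, did not pass the filter and had mean levels of 1.53 and 0.413 FPKM in low-Dbp AIMD and Vehicle mice and of 2.37 and 0.413 FPKM in high-Dbp ones.

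Over all 11971 genes, the interaction passed at an adjusted p under 0.05 for 0 genes (0%) with limma, and also for 0 with limma voom on the recovered reads. An unadjusted p under 0.05 was reached by 534 genes (4.46%) with limma and by 590 (4.93%) with voom, and the smallest adjusted p was 0.716. Without Vehicle replicate 8 an unadjusted p under 0.05 was reached by 997 genes (8.33%), and with the replicate number as a block by 1045 (8.73%). It was reached by 2201 genes (18.4%) with array weights in limma and by 1838 (15.4%) with weighted voom. In each of these fits 0 genes were past the adjusted threshold. The median 95% interval of an interaction reached 0.62 to either side. For 8007 genes (66.9%) the whole interval lay within -1 to 1 on the fitted scale. Among the 3901 genes called in at least 1 class this held for 2304 (59.1%). For genes with high FPKM these limits are close to a change of the AIMD effect by a factor of 2 in either direction. The scale understates the change of low genes, so for low genes the same limits allow a larger change in FPKM.

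AIMD against Vehicle was called for 1593 genes (13.3%) in low-Dbp mice, 912 higher and 681 lower, and for 3574 genes (29.9%) in high-Dbp mice, 1949 higher and 1625 lower. A set of 1266 genes was called in both, each in the same direction, which is 79.5% of the low-Dbp calls and 35.4% of the high-Dbp calls. The unequal counts do not show that the classes differ, since the difference itself passed for no gene, and the low-Dbp class has 1 AIMD mouse fewer. Single mice moved the counts. The low-Dbp count was 631 without AIMD replicate 1, 798 without AIMD replicate 2 and 929 without Vehicle replicate 1, and the high-Dbp count was 2343 without AIMD replicate 6. Of the low-Dbp calls, 1573 (98.7%) had an estimate of the same sign in the high-Dbp mice. Of the high-Dbp calls, 3475 (97.2%) had one of the same sign in the low-Dbp mice. Over all genes tested, the signs were the same in the 2 classes for 80.7%. The 2 effects, which share no mice, had a Pearson correlation of 0.79 across genes; genes are not independent replicates.

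Overlap of the groups was counted as well. AIMD mice lay above all Vehicle mice for 16.1% of genes and below them for 13.6% in the low-Dbp class, and for 14.5% and 10.9% in the high-Dbp class. The low-Dbp class has 1 AIMD mouse fewer, so groups separate more easily there, and these shares do not compare the classes. No overlap in both classes with the same direction was seen for 14.4% of genes, and with opposite directions for 0%. Genes with large AIMD effects are given as examples. Insl5, a hormone of colonic L cells, rose from 0.621 to 2.45 FPKM in low-Dbp Vehicle mice to 29.5 to 62.4 FPKM in low-Dbp AIMD mice, and from 0.211 to 1.34 FPKM to 34.2 to 46.4 FPKM in high-Dbp mice. No groups overlapped, and the rises were 4.66 (limma, adjusted p = 1.73e-06) and 5.19 (adjusted p = 1.91e-07). Gcg, which encodes proglucagon, rose by 2.68 and 2.78, with an interaction of -0.09 (95% interval -1.19 to 1.01). Without Vehicle replicate 8, which was low for Gcg, the high-Dbp rise was 2.28 and the interaction 0.4. Scd1, the desaturase that makes oleate, fell by 2.11 and 1.84, with an interaction of -0.27 (95% interval -0.94 to 0.41).

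**Figure D2:**
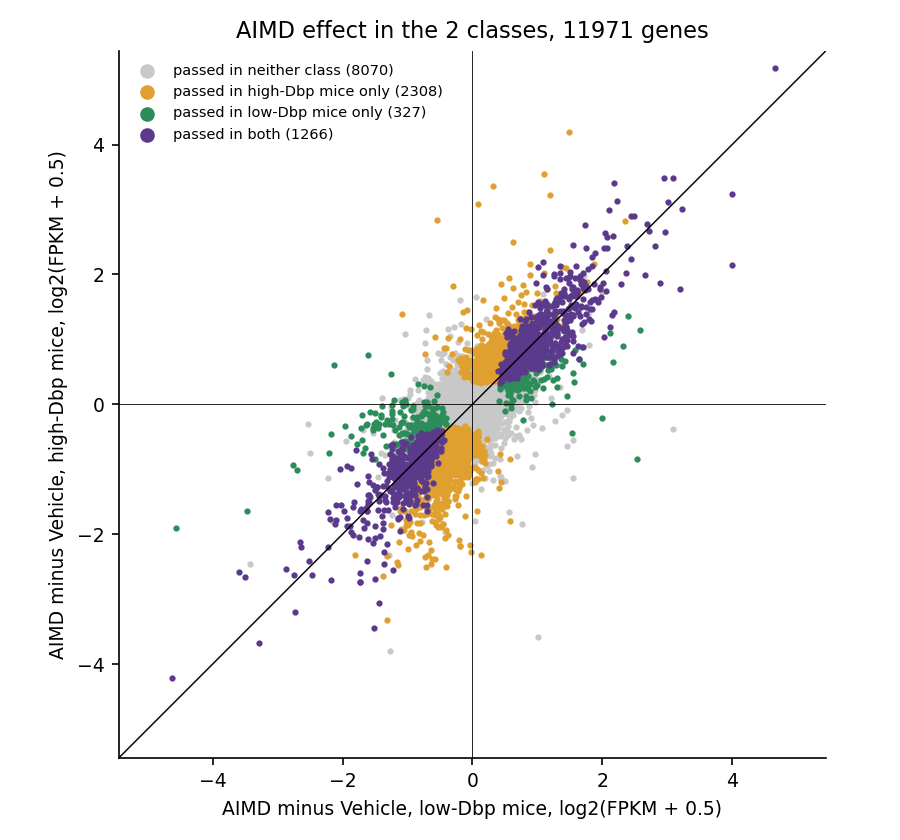
AIMD minus Vehicle difference in high-Dbp mice (vertical) against that in low-Dbp mice (horizontal), both on the log2(FPKM + 0.5) scale, for 11971 genes; colours mark the genes called in neither class, in 1 class or in both, and the diagonal is equal effects. The 1266 genes called in both classes all lie where the 2 differences have the same sign.

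The 20 genes with the smallest interaction p, 10 in each direction among genes with a mean of at least 1 FPKM in 1 cell, are given as the strongest candidates for a dependence on the class; none passed the adjusted threshold. Since they were picked for a difference between the classes, their AIMD effects by class, with p adjusted over all genes tested, are given as a description. Of the 20, 13 had a promoter window, and 0 of the 13 held any of the 4 clock motifs.

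Below 0, that is, with a more negative AIMD effect in low-Dbp mice, the smallest p belonged to Igdcc4 (chr9:65101486-65137940, plus strand), a membrane protein of the immunoglobulin superfamily. Its FPKM were 0.881, 0.799 and 0.819 in low-Dbp AIMD mice and 2.82, 3.53, 3.16 and 4.04 in low-Dbp Vehicle mice. In high-Dbp mice they were 1.23, 0.948, 0.909 and 1.19 after AIMD and 1.55, 1.96, 1.54 and 1.08 in Vehicle. The low-Dbp Vehicle mice stood above all other 11 mice, the low-Dbp groups did not overlap, and the high-Dbp groups did. The AIMD effect was -1.53 in low-Dbp mice and -0.36 in high-Dbp mice, with an interaction of -1.17 (95% interval -1.66 to -0.68; unadjusted p = 0.000112, limma adjusted p = 0.716). Its high-Dbp effect passed without Vehicle replicate 8, at -0.48 (limma, adjusted p = 0.0212).

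For Glipr2, Prkg2 and Gstm3 the low-Dbp groups were also apart while the high-Dbp groups overlapped. Prkg2 (chr5:98929773-99037351, minus strand) encodes the cGMP-dependent kinase through which guanylin drives intestinal chloride secretion. It had 8.51, 4.98 and 5.96 FPKM in low-Dbp AIMD mice and 26.1, 22.4, 23.5 and 26.2 FPKM in low-Dbp Vehicle mice. In high-Dbp mice it had 6.4, 5.34, 4.44 and 5.95 FPKM after AIMD and 11.6, 8.09, 7.28 and 5.58 FPKM in Vehicle. The high level was again that of the 4 low-Dbp Vehicle mice, and the effects were -1.87 and -0.48, with an interaction of -1.39 (95% interval -2.01 to -0.76). Without Vehicle replicate 8 the high-Dbp effect passed, at -0.64 (limma, adjusted p = 0.0179).

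Glipr2 (chr4:43957401-43979118, plus strand), a protein of Golgi membranes, had 5.86 to 8.51 FPKM in low-Dbp AIMD mice and 14.7 to 22.5 FPKM in low-Dbp Vehicle mice. In the high-Dbp class it had 4.14 to 5.5 and 4.24 to 6.03 FPKM, ranges that overlapped. Effects were -1.24 and -0.01, with an interaction of -1.23 (95% interval -1.74 to -0.71; unadjusted p = 0.00012). Gstm3 (chr3:107963696-107969283, minus strand), a glutathione transferase of a multigene family whose reads could be shared among copies, had 29.3 to 31 FPKM against 72.4 to 107 in low-Dbp mice and 15.6 to 22.8 against 16.7 to 36.9 in high-Dbp mice. Its family member Gstm1 fell by 1.37 in low-Dbp mice (limma, adjusted p = 0.00159) with an estimate of -0.48 in high-Dbp mice. Fads3 (chr19:10041569-10060110, plus strand), a member of the fatty acid desaturase family, had 0.875 to 1.89 against 4.78 to 7.18 FPKM in low-Dbp mice and 1.44 to 2.17 against 2.55 to 4.25 FPKM in high-Dbp mice. Unlike for the genes above, neither pair of groups overlapped, and Fads3 fell in both classes, by 1.8 (adjusted p = 8.3e-05) and 0.7 (adjusted p = 0.0129).

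Nek2, Kif22 and Tnfsf13os differed in form, since here the high-Dbp Vehicle mice were low. Nek2 (chr1:191821444-191833050, plus strand), a centrosome kinase of mitosis, had 3.71, 3.41 and 3.17 FPKM in low-Dbp AIMD mice and 4.04, 3.69, 3.29 and 4.02 FPKM in low-Dbp Vehicle mice. In high-Dbp mice it had 3.7, 2.97, 3.56 and 3.42 FPKM after AIMD and 2.23, 1.86, 1.25 and 1.47 FPKM in Vehicle. The high-Dbp Vehicle mice stood below all other 11 mice. Effects were -0.11 and 0.84, with an interaction of -0.96 (95% interval -1.42 to -0.5; unadjusted p = 0.000453). Kif22 (chr7:127027729-127042471, minus strand), a kinesin that moves chromosomes, had 1.22 to 1.99 FPKM in high-Dbp Vehicle mice and 3.25 to 6.88 FPKM in the other 11 mice, with an interaction of -1.2 (95% interval -1.84 to -0.56). Tnfsf13os, a transcript antisense to Tnfsf13 and Tnfsf12, had 1.24 to 2.13 FPKM in high-Dbp Vehicle mice and 2.33 to 5.2 FPKM in the others; whether counting used strand is not given in the sources used here, so its reads and those of the genes opposite cannot be told apart.

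Immunoglobulin segments made up the last of the 10 below 0, and reads of such segments are hard to assign to 1 gene. Ighg1, the constant region of IgG1 heavy chains, had 1.35 to 1.67 FPKM in low-Dbp AIMD mice, 3.31 to 11.4 in low-Dbp Vehicle mice, 1.84 to 5.55 in high-Dbp AIMD mice and 1.18 to 5.89 in high-Dbp Vehicle mice. The low-Dbp groups did not overlap and the high-Dbp groups did. Igkv4-53, a kappa variable segment, was at 0 FPKM in all 4 high-Dbp Vehicle mice and had 1.42 to 12.6 FPKM in the high-Dbp AIMD mice, so no fold is given.

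Above 0, that is, with a more positive AIMD effect in low-Dbp mice, Enpep had the smallest p. Enpep (chr3:129269175-129332720, minus strand), the brush-border glutamyl aminopeptidase, had 19.2, 7.46 and 11.5 FPKM in low-Dbp AIMD mice and 3.24, 3.65, 4.65 and 3.59 FPKM in low-Dbp Vehicle mice. In high-Dbp mice it had 20.8, 10.2, 20.5 and 12.2 FPKM after AIMD and 24.8, 9.81, 25 and 30.8 FPKM in Vehicle. The low-Dbp groups did not overlap, and among high-Dbp Vehicle mice replicate 6 was low, as for Fabp6. Effects were 1.54 and -0.44, and the interaction was 1.98 (95% interval 0.92 to 3.03; unadjusted p = 0.0011, limma adjusted p = 0.953). It was 2.33 without Vehicle replicate 6 and 1.79 without Vehicle replicate 8. Itln1, a lectin of Paneth and goblet cells chosen after its values were seen, had 9.85, 0.848, 9.64 and 9.01 FPKM in Vehicle replicates 5 to 8 and 0.533 to 1.65 FPKM in the other 11 mice, with an interaction of 1.88 (95% interval 0.34 to 3.43). Without Vehicle replicate 6, Itln1 (interaction 2.6, adjusted p = 0.02) and St3gal4, a sialyltransferase (interaction 4.27, adjusted p = 0.0328), passed the adjusted threshold.

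Pcp4, which neurons of the gut wall express, and Sst, a gut hormone gene, were highest in the high-Dbp Vehicle mice. Pcp4 (chr16:96467606-96525793, plus strand, overlapping Igsf5 on the same strand), a calmodulin-binding peptide, had 13.4, 8.45 and 15.9 FPKM in low-Dbp AIMD mice and 38.6, 41.2, 20 and 51.4 FPKM in low-Dbp Vehicle mice. After AIMD it had 6, 5.46, 7.96 and 12.5 FPKM in high-Dbp mice, against 59.5, 72.5, 91.2 and 145 FPKM in high-Dbp Vehicle mice. No groups overlapped within a class. Pcp4 fell by 1.52 in low-Dbp mice (limma, adjusted p = 0.0116) and by 3.44 in high-Dbp mice (adjusted p = 1.08e-05), with an interaction of 1.92 (95% interval 0.9 to 2.95) that was 1.68 without Vehicle replicate 8.

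Sst (chr16:23889573-23890958, minus strand), the hormone somatostatin, had 4.87, 3.62 and 2.11 FPKM in low-Dbp AIMD mice and 5.22, 7.66, 2.25 and 4.95 FPKM in low-Dbp Vehicle mice. High-Dbp mice had 2.61, 2.61, 3.43 and 3.91 FPKM after AIMD and 13.9, 21, 12.2 and 44.3 FPKM in Vehicle. The low-Dbp groups overlapped, and Vehicle replicate 8 stood far above the rest. Effects were -0.41 and -2.51, and the interaction was 2.1 (95% interval 0.94 to 3.26), or 1.72 without Vehicle replicate 8.

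Others above 0 included Rnase1, a secreted ribonuclease, which had 1.8 to 2.24 FPKM in low-Dbp AIMD mice and 0.278 to 1.73 FPKM in all other mice. It rose by 1.55 in low-Dbp mice (limma, adjusted p = 0.000215), and the high-Dbp estimate was 0.48 (adjusted p = 0.0653). Rgmb, a co-receptor of bone morphogenetic proteins, had 7.15 to 10.4 FPKM in high-Dbp Vehicle mice and 3.54 to 5.84 FPKM in the other 11 mice. C1qtnf3, a secreted C1q-related protein, had 1.07 to 1.97 FPKM in high-Dbp Vehicle mice against 0 to 0.587 FPKM in the others, and H2-Bl, an MHC class I relative whose reads may belong to other class I genes, had 1.28 to 2.72 against 0.428 to 0.93 FPKM. Rsph9, a part of the radial spoke of cilia, had 0.667 to 2.71 against 0.0542 to 0.679 FPKM, with Vehicle replicate 7 inside the range of the others. Snord72, a small nucleolar RNA that lies within Rpl37 on the same strand (chr15:5118404-5118484), had 8.46 to 24.5 FPKM in high-Dbp Vehicle mice, 2.14 to 4.45 in high-Dbp AIMD mice, 5.2 to 6.17 in low-Dbp AIMD mice and 6.72 to 10 in low-Dbp Vehicle mice, so the Vehicle classes overlapped.

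**Figure D3:**
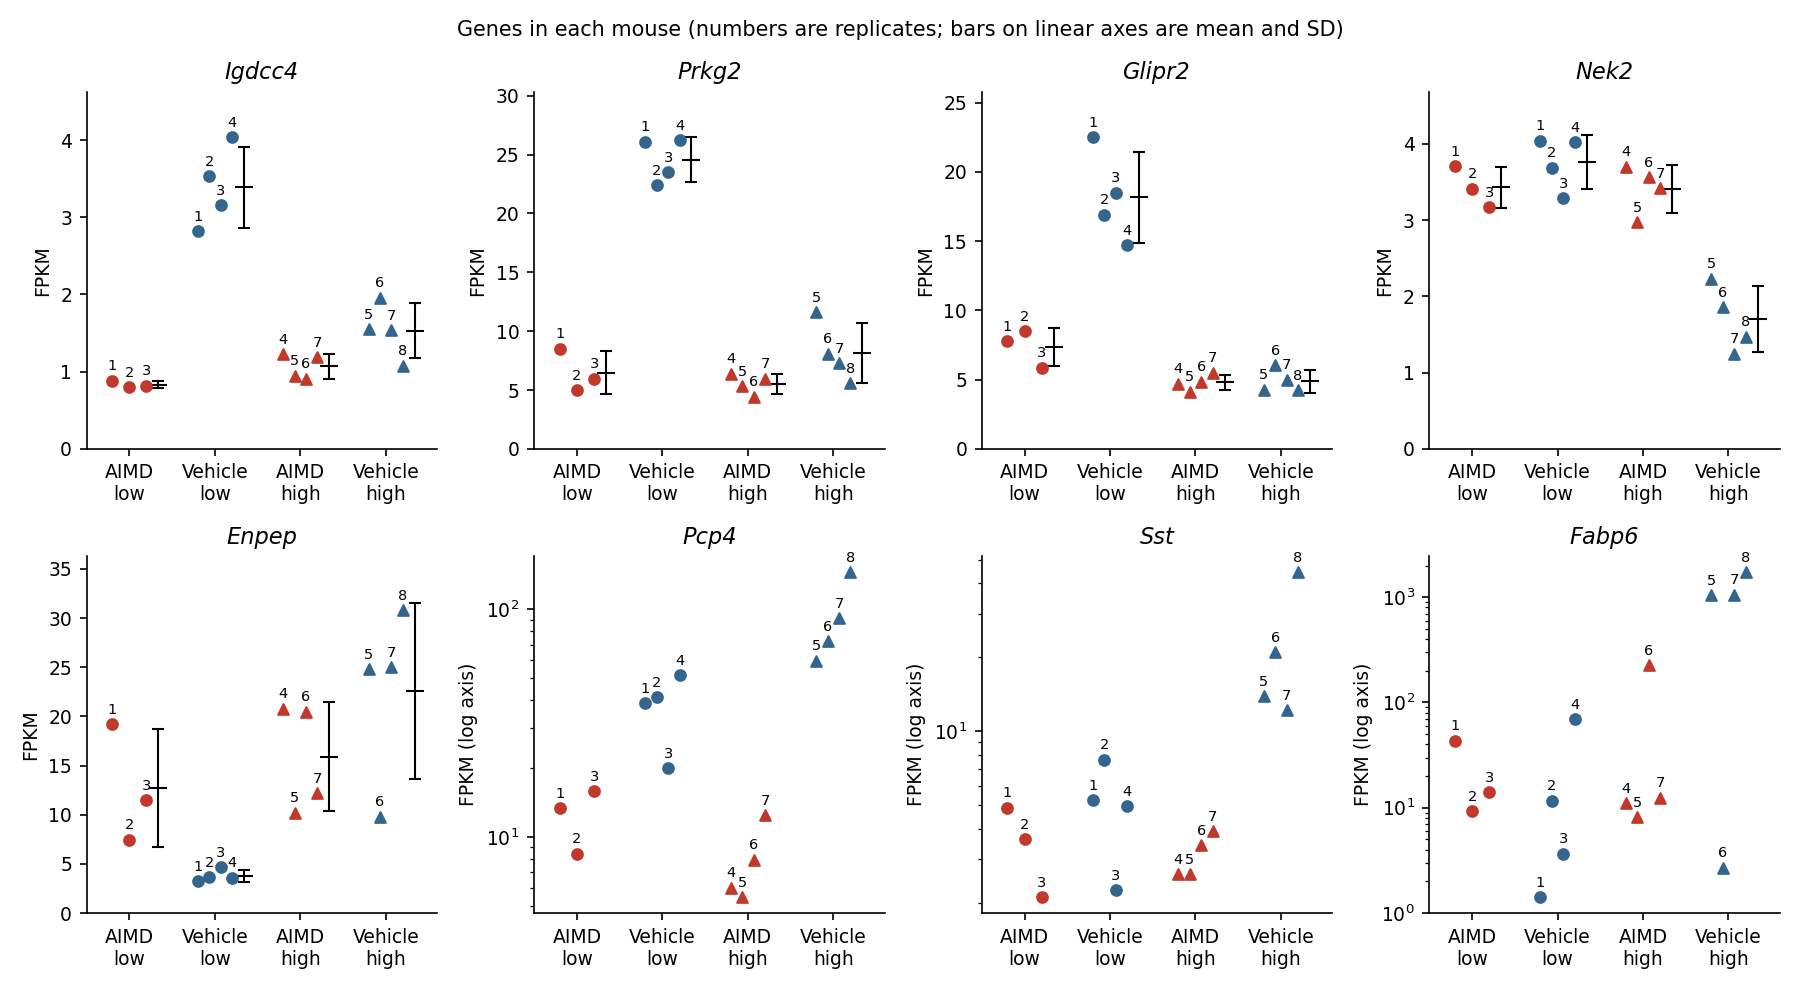
FPKM of 7 of the 20 genes and of Fabp6 in each mouse by treatment and Dbp class; each point is a mouse with its replicate number, linear axes start at 0 and carry the mean and SD, and the axes of Pcp4, Sst and Fabp6 are logarithmic. The low-Dbp Vehicle mice stand alone for Igdcc4, Prkg2 and Glipr2 (14.7 FPKM or more for Glipr2), the high-Dbp Vehicle mice for Nek2, and Vehicle replicate 6 departs from replicates 5, 7 and 8 for Enpep and Fabp6.

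**Figure D4:**
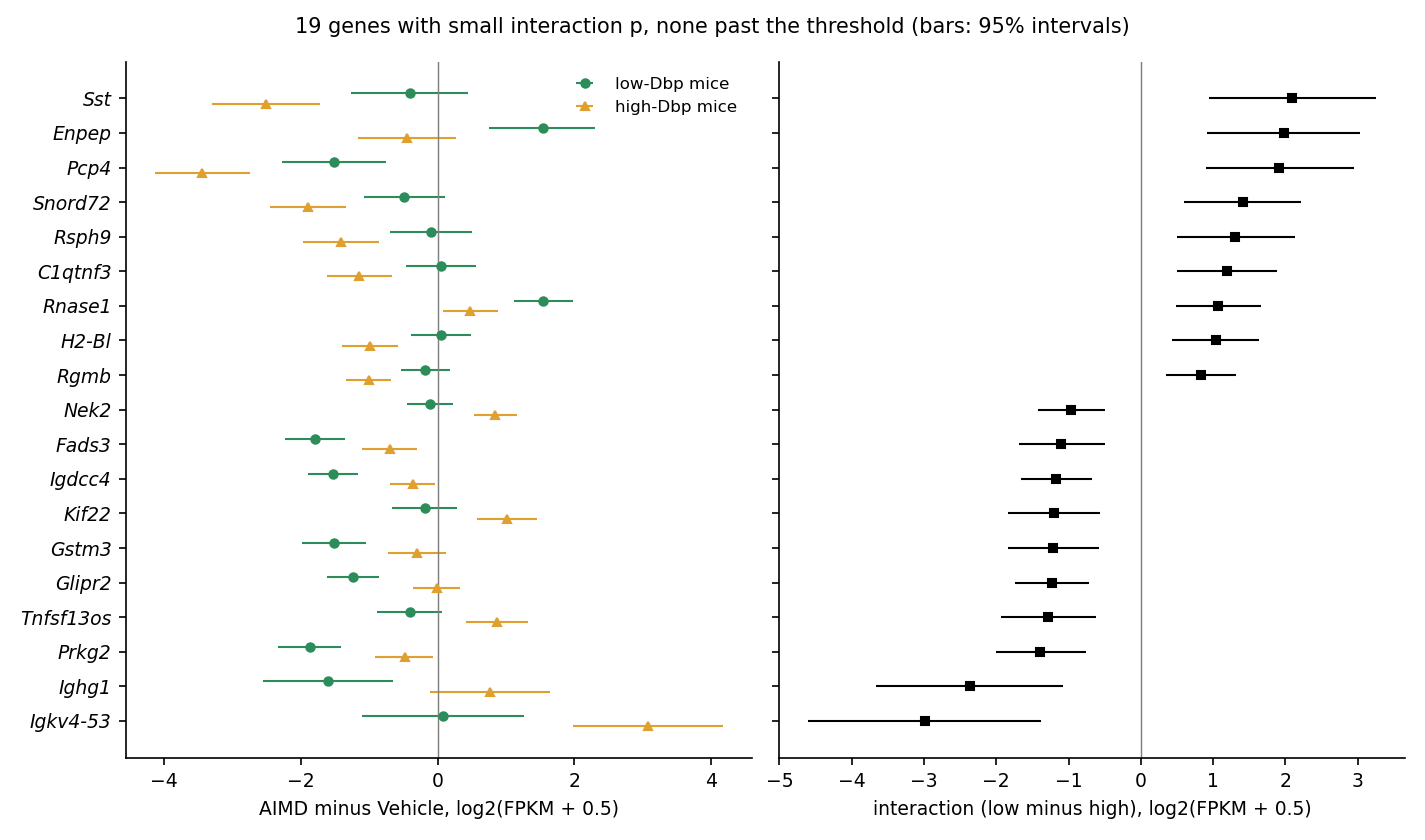
AIMD minus Vehicle difference in low-Dbp and high-Dbp mice (left) and the interaction (right) for 19 of the 20 genes, on the log2(FPKM + 0.5) scale; points are estimates and bars are 95% intervals not adjusted for the number of genes. Sst has the largest estimate above 0 among these genes (2.1) and Igkv4-53 the largest below 0 (-2.99, a fitted value that rests on a group at 0 and is no bound).

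The cell whose mean lay farthest from the mean of the other 3 was read for each gene, as a description. Over all genes it was the high-Dbp Vehicle cell for 38%, the low-Dbp Vehicle cell for 25.3%, the high-Dbp AIMD cell for 22.1% and the low-Dbp AIMD cell for 14.6%. Among the 263 genes with an unadjusted interaction p under 0.05 above 0, it was the high-Dbp Vehicle cell for 63.1%, the low-Dbp Vehicle cell for 20.9%, the high-Dbp AIMD cell for 10.6% and the low-Dbp AIMD cell for 5.32%. Among the 271 below 0, these shares were 45.4%, 24.4%, 12.5% and 17.7%. Without Vehicle replicate 8 the shares of the high-Dbp Vehicle cell were 62.7% and 43.5%.

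Gene lists are described by counts and medians, with no test of a list. MHC class II genes, which present antigen to T helper cells, had the most negative median interaction, -0.91. An estimate below 0 was found for 9 of 9 measured members (10 were listed), against 52.1% of all genes. Cd74, the invariant chain of class II, had 54.2, 87 and 50.4 FPKM in low-Dbp AIMD mice and 112, 109, 179 and 118 FPKM in low-Dbp Vehicle mice. In high-Dbp mice it had 102, 93.8, 108 and 99.5 FPKM after AIMD and 57, 115, 80.9 and 193 FPKM in Vehicle. The low-Dbp groups did not overlap, and Vehicle replicates 5 and 8 spanned the whole high-Dbp range. Cd74 fell by 1.02 in low-Dbp mice (limma, adjusted p = 0.0446), and its interaction was -1.03 (95% interval -1.95 to -0.1). H2-Ab1, a class II beta chain, fell by 1.01 (adjusted p = 0.0277), H2-DMb2, a peptide-loading chaperone, by 1.7 (adjusted p = 0.00628) and H2-Ob, its inhibitor, by 1.48 (adjusted p = 0.0183), all in low-Dbp mice. The list thus had 4 of 9 members lower in low-Dbp mice, against 5.69% of all genes, and 0 in high-Dbp mice, against 13.6%. An unadjusted interaction p under 0.05 was reached by 5 of 9, against 4.46% of all genes. The median AIMD effect of the list was -0.92 in low-Dbp mice and 0 in high-Dbp mice. Without Vehicle replicate 8 the list median of the interaction was -1.23. In that fit 7 of 9 had an unadjusted p under 0.05, against 8.33% of all genes.

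Cd79a, a chain of the B cell receptor, moved beside class II. It had 1.49, 5.21 and 3.4 FPKM in low-Dbp AIMD mice and 8.03, 5.94, 10.7 and 9.37 FPKM in low-Dbp Vehicle mice. High-Dbp mice had 6.26, 4.04, 5.85 and 9.35 FPKM after AIMD and 5.58, 6.13, 5.45 and 15.1 FPKM in Vehicle. The low-Dbp groups did not overlap and the high-Dbp groups did. It fell by 1.32 in low-Dbp mice (limma, adjusted p = 0.0303), and the high-Dbp estimate was -0.24 (adjusted p = 0.635). The interaction was -1.08 (95% interval -2.17 to 0.01). Without Vehicle replicate 8 the high-Dbp estimate was 0.09 and the interaction -1.41. Of 10 immune markers, 1 rose and 2 fell in low-Dbp mice, against 7.62% and 5.69% of all genes. In high-Dbp mice 2 rose, near the 16.3% of all genes, and 0 fell, against 13.6%. The median interaction of these markers was -0.28. Their summed level ranged over 124 to 227 and 74.9 to 166 FPKM in low-Dbp AIMD and Vehicle mice and over 196 to 400 and 178 to 317 FPKM in high-Dbp ones. The part of the number of B cells in the class II values was not tested.

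Markers of muscle and nerve were at the other end. All 6 measured markers of enteric neurons and glia (8 were listed) fell in high-Dbp mice and 0 passed in low-Dbp mice, against 13.6% and 5.69% of all genes, with a median AIMD effect of -1.72 against -0.67 and a median interaction of 1.06. S100b, a glial calcium-binding protein, had 0.248 to 0.393 FPKM in low-Dbp AIMD mice, 0.364 to 1.7 in low-Dbp Vehicle mice, 0.0809 to 0.359 in high-Dbp AIMD mice and 1.96 to 5.54 in high-Dbp Vehicle mice. It fell by 2.16 in high-Dbp mice (limma, adjusted p = 0.000216), and the interaction was 1.29 (95% interval 0.36 to 2.23). The summed level of the list was 3.77 to 5.69 and 5.48 to 19.5 FPKM in low-Dbp AIMD and Vehicle mice and 3.3 to 5.74 and 16 to 79 FPKM in high-Dbp ones, the highest in Vehicle replicate 8. Without that mouse the median interaction was 0.74 and 3 of the 6 were lower in low-Dbp mice. Pcp4 and Sst moved in the same direction as this list, and its part in their values was not tested. Sst was counted with the gut hormone genes and not with these markers.

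Smooth muscle markers had a median interaction of 0.82, with 8 of 8 estimates above 0, against 47.9% of all genes. Of the 8, 3 were lower in high-Dbp mice, against 13.6% of all genes, and 0 passed an unadjusted p of 0.05 for the interaction. The median interaction was 0.34 without Vehicle replicate 8. Fibroblast markers had a median of 0.6 (0.49 without Vehicle replicate 8), with 6 of 7 above 0, against 47.9% of all genes. Of the 7, 3 had an unadjusted p under 0.05 for the interaction, against 4.46% of all genes. Enterocyte, goblet and blood markers had medians of 0.09, 0.11 and -0.16, whose sign turned when single mice were left out (-0.02 to 0.19, -0.21 to 0.26 and -0.42 to 0.13), and the 1 pancreas marker measured had an estimate of -0.35 (-0.06 without Vehicle replicate 8).

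Genes of the mitochondrial chromosome passed in high-Dbp mice, and only mt-Nd5 passed in low-Dbp mice as well. All 7 measured members (13 were listed) were lower in high-Dbp mice, against 13.6% of all genes. In low-Dbp mice 1 of 7 was lower, against 5.69% of all genes. mt-Nd5, a subunit of complex I that overlaps mt-Nd6 on the other strand, had 414 to 632 FPKM in low-Dbp AIMD mice, 1240 to 3940 in low-Dbp Vehicle mice, 533 to 1220 in high-Dbp AIMD mice and 1800 to 3570 in high-Dbp Vehicle mice. No groups overlapped within a class, and mt-Nd5 fell by 1.93 (limma, adjusted p = 0.00515) and 1.75 (adjusted p = 0.00278). mt-Co1, a subunit of cytochrome c oxidase, had 9600 to 15700 against 10700 to 39800 FPKM in low-Dbp mice and 9890 to 23900 against 34500 to 75000 FPKM in high-Dbp mice. It fell by 1.82 in high-Dbp mice (adjusted p = 0.00591), and the low-Dbp estimate was -0.81 (adjusted p = 0.258). The list's median interaction was 0.97, and it ran from 0.65 to 1.23 when mice were left out 1 at a time.

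Cell-cycle genes were examined because Nek2 and Kif22 stood among the 20 genes and because Wee1 ties the clock to mitosis. Their promoters often hold CHR, the element TTTGAA through which the DREAM complex silences them; it stood in 11 of the 26 list members with a window and in 20.2% of all genes. The Plk1 stretch is chr7:122159435-122159484 on the plus strand, and the Mki67 stretch is chr7:135716442-135716525 on the minus strand. Capitals mark TTTGAA.
Plk1: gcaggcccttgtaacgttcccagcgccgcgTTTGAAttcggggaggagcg
Mki67: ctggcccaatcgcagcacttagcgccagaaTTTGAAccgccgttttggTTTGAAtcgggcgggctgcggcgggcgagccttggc

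Mki67, a marker of dividing cells, had 5.33, 5.15 and 5.28 FPKM in low-Dbp AIMD mice and 4.75, 4.63, 4.3 and 6.79 FPKM in low-Dbp Vehicle mice. In high-Dbp mice it had 4.29, 5.96, 6.19 and 6.08 FPKM after AIMD and 3.19, 3.15, 2.79 and 3.04 FPKM in Vehicle. The high-Dbp Vehicle mice stood below all others, and the low-Dbp groups overlapped. Mki67 rose by 0.78 in high-Dbp mice (limma, adjusted p = 0.00186), and its interaction was -0.72 (95% interval -1.2 to -0.25; unadjusted p = 0.00492). Plk1, a mitotic kinase, fell by 0.65 in low-Dbp mice (adjusted p = 0.0407), with an estimate of 0.27 in high-Dbp mice and an interaction of -0.92 (95% interval -1.49 to -0.34). Of the 32 list members, 0 were higher and 1 was lower in low-Dbp mice, against 7.62% and 5.69% of all genes. In high-Dbp mice 5 were higher (Mki67, Top2a, Ccna2, Aurka and Bub1b) and 2 were lower (Mcm2 and Cdt1, both of DNA replication licensing), against 16.3% and 13.6% of all genes, so the share of higher members lay near that of all genes. The interaction was below 0 for 19 of 32, against 52.1% of all genes, with 2 at an unadjusted p under 0.05 and a median of -0.11 (-0.04 without Vehicle replicate 8).

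Heat shock genes, whose RNA follows body temperature over the day, had a median interaction of 0.31. Of 16 interaction estimates 14 were above 0, against 47.9% of all genes, and 1 member had an unadjusted p under 0.05. That member was Hsph1, a nucleotide exchange factor of HSP70, with 8.49 to 19.8 FPKM in low-Dbp AIMD mice, 7.08 to 10.6 in low-Dbp Vehicle mice, 3.8 to 5.72 in high-Dbp AIMD mice and 6.19 to 10.1 in high-Dbp Vehicle mice. The high-Dbp groups did not overlap, with AIMD below. Of the 16, 2 were higher in low-Dbp mice (7.62% of all genes were), and 3 were higher and 2 lower in high-Dbp mice, near the 16.3% and 13.6% of all genes. Genes of the unfolded protein response had a median interaction of 0.17, with 12 of 16 above 0. Among them Herpud1, which helps clear proteins from the endoplasmic reticulum, fell by 0.79 in high-Dbp mice (limma, adjusted p = 0.00828), with an interaction of 0.81 (95% interval 0.2 to 1.43).

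Metabolic lists, which hold many genes that the clock times, had calls in both classes. Of all genes, 7.62% were higher and 5.69% lower in low-Dbp mice, and 16.3% and 13.6% in high-Dbp mice. Sterol synthesis and uptake genes were higher for 9 of 24 and lower for 1 in low-Dbp mice and higher for 10 and lower for 2 in high-Dbp mice, with medians of 0.51 and 0.45 and a median interaction of 0.1. Glycolysis genes were higher for 8 of 18 and lower for 0 in low-Dbp mice and higher for 11 and lower for 3 in high-Dbp mice, with medians of 0.55 and 0.73 and a median interaction of -0.14. Fatty acid oxidation and PPAR target genes were higher for 1 of 30 and lower for 11 in low-Dbp mice and higher for 4 and lower for 12 in high-Dbp mice, with medians of -0.36 and -0.24 and a median interaction of -0.08. The median interaction of sterol genes ran from -0.01 to 0.23, of glycolysis genes from -0.24 to 0 and of fatty acid oxidation genes from -0.16 to -0.01 when mice were left out 1 at a time. Fatty acid synthesis genes were lower for 3 of 16 in each class and higher for 0 and 1, with medians of -0.12 and 0. Within that list Me1, the malic enzyme that makes NADPH for lipid synthesis, had an interaction of 0.73 (95% interval 0.13 to 1.32; unadjusted p = 0.0198), with 2.35 to 2.58 against 4.17 to 6.61 FPKM in low-Dbp mice and 2.65 to 3.07 against 8.33 to 17.2 FPKM in high-Dbp mice. Neither pair of groups overlapped, and the interaction of Me1 was 0.51 without Vehicle replicate 8.

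The 45 genes that the study names for the cecum are a list chosen on these mice and so no independent evidence of direction. Of the 45, 32 were called in low-Dbp mice (17 higher, 15 lower), against 13.3% of all genes. In high-Dbp mice 35 were called (19 higher, 16 lower), against 29.9% of all genes. The median interaction of the 45 was 0, and 4 had an unadjusted p under 0.05 (4.46% of all genes did), none past the adjusted threshold. Gyk, glycerol kinase, had 8.65 to 10.5 against 2.31 to 3.29 FPKM in low-Dbp mice and 6.73 to 9.15 against 3.29 to 4.95 FPKM in high-Dbp mice. It rose in both, by 1.63 (limma, adjusted p = 2.15e-05) and 0.89 (adjusted p = 0.000809), with an interaction of 0.74 (95% interval 0.27 to 1.21; unadjusted p = 0.00407). Fabp2, which binds fatty acids in enterocytes, had an interaction of 1.04, and it had 5480 to 10100 FPKM in high-Dbp Vehicle mice against 2870 to 5150 FPKM in low-Dbp Vehicle mice. Cpt1a, the entry step of mitochondrial fatty acid oxidation, had an interaction of -0.61, and Hk2, a hexokinase, had one of -0.9 with a rise in both classes.

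**Figure D5:**
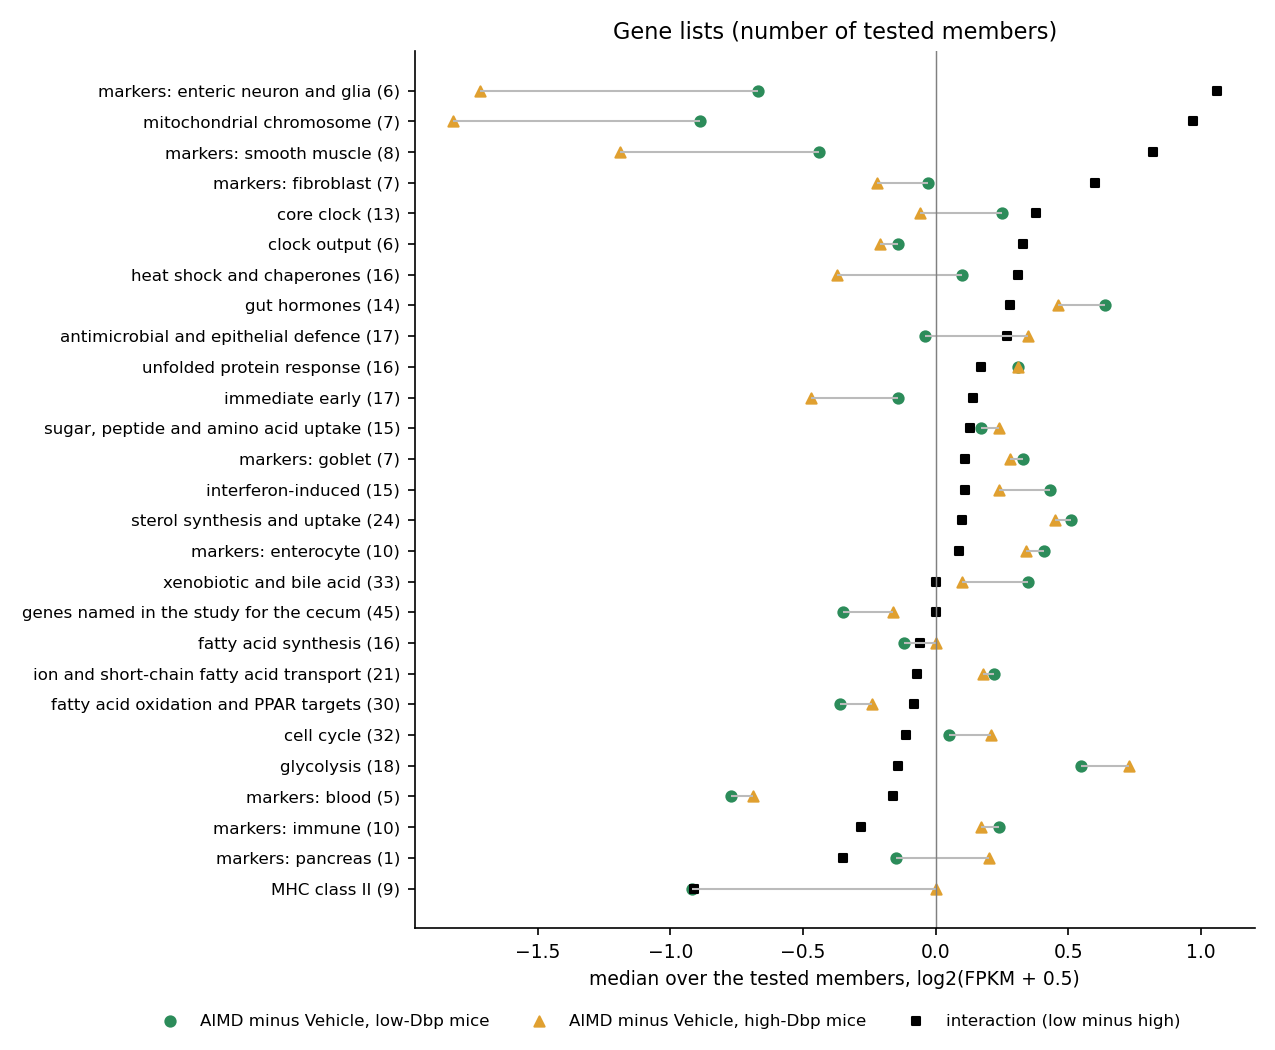
Median over the measured members of 27 gene lists of the AIMD minus Vehicle difference in low-Dbp mice (circles) and high-Dbp mice (triangles) and of the interaction (squares), on the log2(FPKM + 0.5) scale, with the number of measured members after each name and lists ordered by the interaction. Most lists lie near 0 for the interaction, while neuron and glia markers (1.06) and MHC class II genes (-0.91) mark the ends; without Vehicle replicate 8 the mitochondrial list (1.09) lay above the neuron and glia markers (0.74).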

How the data were processed

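Cecal RNA of 7 AIMD and 8 Vehicle mice was measured by sequencing stranded poly-A libraries with single reads. The authors used STAR on GRCm38 and featureCounts, and deposited FPKM by gene symbol for each mouse; tool versions and the step from counts to FPKM are not given in the sources used here. The authors' own DESeq2 model held treatment and time of sacrifice. Members and gene lists here were chosen with earlier results of these data known.

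For each of 24279 genes above 0, FPKM came out as whole reads times a constant (tolerance 0.02 reads), which gave the depth. FPKM were divided by size factors, and 4 rows with repeated symbols were left out. log2(FPKM + 0.5) of genes with at least 0.5 FPKM in at least 7 mice was fitted with the 4 cells in limma 3.58.1 (R 4.3.3, eBayes with a trend, Benjamini-Hochberg adjustment, threshold 0.05, two-sided). Named genes were the 10 with the smallest interaction p in each direction (mean of at least 1 FPKM in 1 cell), list members and genes the study names; the text says where a gene was chosen later, and some genes under the rule are not reported here though the counts include them. Figures used Python 3.11.15 and matplotlib 3.10.9. Positions are those of GENCODE M21. The fits were tested on simulated data. Replicate numbers name different mice, and no duplicate libraries were found (highest correlation between mice 0.9857). Alternatives were other scalings, pseudocounts, filters, weights, a replicate block, continuous clock measures and leaving out each mouse, and limma voom, added after seeing the data.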

Additional observations from a re-analysis of the deposited data

Results flagged for a closer look

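Among 63 genes of the text, a mouse was looked for that stands apart from the other 3 of its cell (gap to the nearest mouse over the range, on the log2 scale, above Dixon's critical value for 4 mice). Of 189 sets of 4 mice, 12 (6.35%) held one, and chance gives about 1 in 20. The genes include Fabp6 and Itln1, which were chosen after their values were seen, so the share cannot show an excess over chance. No explanation was tested. Vehicle replicate 8 stood apart with 15.1 FPKM of Cd79a (others 5.45 to 6.13), 5.35 FPKM of Gcg (others 20.7 to 25.9) and 13.2 FPKM of the goblet cell gene Retnlb (others 55.4 to 60.7). Vehicle replicate 6 stood apart with 2.69 FPKM of Fabp6 (others 1040 to 1720) and 0.848 FPKM of Itln1 (others 9.01 to 9.85). AIMD replicate 6 had 225 FPKM of Fabp6 (others 8.09 to 12.5). AIMD replicate 4 had 4.29 FPKM of Mki67 (others 5.96 to 6.19) and 3.8 FPKM of Hsph1 (others 5.38 to 5.72), and Vehicle replicate 7 had 10.1 FPKM of Hsph1 (others 6.19 to 6.67). AIMD replicate 5 had 3.96 FPKM of Clock (others 4.52 to 4.6). Vehicle replicate 3 had 179 FPKM of Cd74 (others 109 to 118), and Vehicle replicate 4 had 0.527 FPKM of C1qtnf3 (others 0.369 to 0.376). No interaction passed the adjusted threshold, and for 0 genes did the groups separate in opposite directions in the 2 classes.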

How the results depend on the processing

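The interaction passed for 0 genes under most alternatives, for 1 with the filter at 3 mice (Ighv4-1, an immunoglobulin segment, adjusted p = 0.00093 with limma), for 2 with no filter (1 higher, Gm11849, and 1 lower, Ighv4-1) and, leaving out mice in turn, for 0 to 2 (2 higher without Vehicle replicate 6, 0 lower). With array weights in limma the smallest adjusted p was 0.0961, and 2201 genes (18.4%) had an unadjusted p under 0.05. With weighted voom, chosen after seeing the data, the smallest adjusted p was 0.121, and 1838 genes (15.4%) had an unadjusted p under 0.05. With Dbp or a clock score as a continuous measure, 0 genes passed, and 436 and 380 had an unadjusted p under 0.05. Low-Dbp calls ran from 631 to 2278 when mice were left out (345 to 1250 higher, 286 to 1028 lower), were 615 (340 higher, 275 lower) with a difference of at least 1 required, 2625 (1425 and 1200) with array weights, 2610 (1262 lower) with weighted voom, chosen after seeing the data, and 444 lower with no filter. High-Dbp calls ran from 2343 to 4197 (1273 to 2182 higher, 1070 to 2015 lower), were 1033 (471 and 562) with that difference, 5830 (3003 and 2827) with array weights and 5463 (2698 lower) with weighted voom. All 20 named interactions kept their sign and side of the threshold. The replicate block gave 0, 1577 and 3678 calls for the interaction, low-Dbp and high-Dbp mice. Same-numbered mice had correlations of -0.41 to 0.11, and differently numbered mice of -0.36 to 0.5. These were taken after the cell means were removed, in cells of 3 or 4 mice. They cannot decide whether the numbers pair the mice. List medians moved by at least their spread or changed sign in 53 refits and did neither in 730. Depth limits low genes most. The cause of these changes was not tested.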

Other observations

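Other lists gave these values. Of all genes, 7.62% were higher and 5.69% lower in low-Dbp mice, and 16.3% and 13.6% in high-Dbp mice. Gut hormone genes rose for 6 of 14 in low-Dbp mice, with 4 higher and 4 lower in high-Dbp mice. Their median interaction was 0.28 (0.13 without Vehicle replicate 4), with 12 of 14 above 0. Among them Scg2, a granin of secretory granules, had 1.64 (limma, unadjusted p = 0.00948), or 1.23 without Vehicle replicate 8. Tac1, which encodes substance P, had 1.62 (limma, unadjusted p = 0.0209), or 1.24 without Vehicle replicate 8. Antimicrobial and epithelial defence genes had 4 higher and 1 lower of 17 in each class and a median interaction of 0.27, whose sign turned without Vehicle replicate 8 (-0.22) and without AIMD replicate 7 (-0.4). Retnlb, an antibacterial goblet cell protein on that list, had an interaction of -1.86 (95% interval -3.34 to -0.37), or -1.34 without Vehicle replicate 8. Immediate early genes had a median interaction of 0.14 (4 higher and 1 lower of 17 in low-Dbp mice, 4 higher and 6 lower in high-Dbp mice). Genes for uptake of sugars, peptides and amino acids had one of 0.13, with 3 and 2 of 15 higher in low-Dbp and high-Dbp mice. Interferon-induced genes had one of 0.11, with 4 and 6 of 15 higher. Genes for ion and short-chain fatty acid transport had one of -0.07, with 6 and 7 of 21 higher. Fatty acid synthesis genes had one of -0.06. Xenobiotic and bile acid genes had one of 0, with 9 and 10 of 33 higher and 6 and 5 lower. When mice were left out 1 at a time, the median interaction ran across 0 for uptake (-0.03 to 0.22), interferon-induced (-0.08 to 0.28), ion transport (-0.25 to 0.11) and xenobiotic genes (-0.11 to 0.11). Slc10a2, the bile acid transporter on that list, had AIMD effects of 3.99 in low-Dbp mice and 3.24 in high-Dbp mice.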
